A study of Homo sapiens with 6 samples.

Results

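The metallothionein genes MT1E, MT1F, MT1G, MT1H, MT1M, MT1X and MT2A, their transcriptional activator MTF1 and the zinc exporter SLC30A1 were followed in xenografts of HT-29, a widely used line of human colorectal adenocarcinoma cells. The platform annotation named these 9 genes for 17 of the 54675 probe sets of the array, and 0 of the 17 named a further gene. Of the 17, 10 reached a level of 5 on the log2 scale in at least 1 group and are called detected (8 of 11 for the metallothioneins, 2 of 3 for SLC30A1 and 0 of 3 for MTF1), against 23.8% of all probe sets on the array.

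The cells had grown as tumours on both femoral sides of Balb/c (nu/nu) mice, which lack T cells and were injected at an age of 6 to 8 weeks, and all 3 groups shared this cell line and host. The treated group held tumours of animals that had received 30 min of electromagnetic heating on day 18 and were sampled 4 h later, the opposite-side group the untreated tumours on the other side of such animals, and the control group xenografts labelled only as control. Tumour areas were dissected from frozen sections, and the RNA of each group was 1 pool, hybridised to 2 arrays that the labels call technical replicates. The labels give no number of animals for a pool. There was therefore 1 sample in each group, no test between conditions was possible, each SD given covers the 2 technical arrays of a pool only, and the number of arrays limits the precision. In pooled tumours, fewer cells of a type and less RNA per cell cannot be told apart.

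Metallothioneins are small cysteine-rich proteins that bind zinc and copper and buffer the free metal in the cell. MTF1, a zinc finger transcription factor, binds metal response elements in the promoters of the metallothionein genes and of SLC30A1 when free zinc rises, and SLC30A1 (ZnT1) carries zinc from the cytosol out of the cell. Oxidants, glucocorticoids and heat are also known inducers of metallothionein genes, and the gut epithelium uses these proteins in its handling of dietary zinc.

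Upstream sequences are shown because the element that MTF1 reads lies in such promoters. They are those of MT2A and MT1X, whose probe sets stood above control, of MT1H, whose probe set did not, and of SLC30A1. RefSeq promoters (GRCh38.p14) were at hand for 5 of the 9 genes, namely MT2A, MT1X, MT1H, SLC30A1 and MTF1, and the first 4 are printed, each as the 250 bases before the annotated transcript start. The core of the metal response element was searched as TGCACNC or TGCGCNC on both strands, and matches are in capitals. The windows were chr16:56608334-56608583 for MT2A, chr16:56682220-56682469 for MT1X and chr16:56669564-56669813 for MT1H, all on the plus strand, and chr1:211579162-211579411 on the minus strand for SLC30A1.
MT2A: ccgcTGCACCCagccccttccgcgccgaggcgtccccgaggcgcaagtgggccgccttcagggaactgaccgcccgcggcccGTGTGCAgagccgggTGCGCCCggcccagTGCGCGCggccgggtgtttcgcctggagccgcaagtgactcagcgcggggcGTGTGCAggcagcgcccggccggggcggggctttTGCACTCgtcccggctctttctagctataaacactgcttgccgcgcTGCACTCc
MT1X: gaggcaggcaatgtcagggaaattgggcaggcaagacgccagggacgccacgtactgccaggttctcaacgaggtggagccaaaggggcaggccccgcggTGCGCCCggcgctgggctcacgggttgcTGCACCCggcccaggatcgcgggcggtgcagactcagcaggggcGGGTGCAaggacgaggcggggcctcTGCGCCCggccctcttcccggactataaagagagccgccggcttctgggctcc
MT1H: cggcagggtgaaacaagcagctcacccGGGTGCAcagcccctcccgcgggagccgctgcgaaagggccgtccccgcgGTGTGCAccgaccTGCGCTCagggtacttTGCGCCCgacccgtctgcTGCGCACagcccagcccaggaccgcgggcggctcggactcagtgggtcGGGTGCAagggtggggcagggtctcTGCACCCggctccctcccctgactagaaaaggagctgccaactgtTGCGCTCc
SLC30A1: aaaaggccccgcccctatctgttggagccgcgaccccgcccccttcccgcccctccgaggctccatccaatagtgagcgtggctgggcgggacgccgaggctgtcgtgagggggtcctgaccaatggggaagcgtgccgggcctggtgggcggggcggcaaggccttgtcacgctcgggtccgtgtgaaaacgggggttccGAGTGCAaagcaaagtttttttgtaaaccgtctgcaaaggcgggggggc

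The core matched 7 times upstream of MT2A, 8 times upstream of MT1H, 4 times upstream of MT1X, once upstream of SLC30A1 and 0 times upstream of MTF1. No match overlapped another within these windows. Of 35116 promoters of the same length, 24.8% held at least 1 match, 0.37% held 4 or more, 0.031% held 7 or more and 0.017% held 8 or more. The paired unit of the heat shock element, searched as GAANNTTC or TTCNNGAA, was found in 0 of the 5 windows and in 11.6% of all promoters. A match is a description of letters, and an absent one says only that these letters are not in the window.

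**Figure D1:**
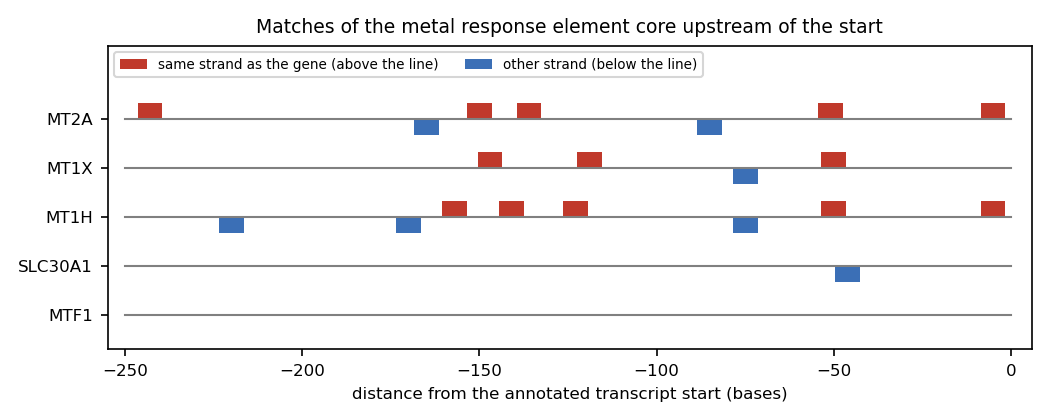
Matches of the metal response element core (bars of 7 bases) against distance in bases from the annotated transcript start, for 5 genes; bars above a line are on the strand of the gene and bars below it on the other strand. MT1H has 8 matches, MT2A 7, MT1X 4, SLC30A1 1 and MTF1 0.

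The probe sets of the metallothionein genes are of a kind that can read several paralogues. Of the 11, 9 end in _x_at, the array maker's mark for probe sets with probes that may also hybridise to other transcripts, and all 8 detected ones are among these 9, against 10.7% of all detected probe sets. The genes form a cluster on chromosome 16, where RefSeq lists in order MT4, MT3, MT2A, MT1L, MT1E, MT1M, MT1JP, MT1A, MT1DP, MT1CP, MT1B, MT1F, MT1G, MT1H, MT1IP and MT1X. The annotation named no probe set for MT1L, MT1JP, MT1A, MT1DP, MT1CP, MT1B or MT1IP, so their transcripts could be read here only through the probe sets of relatives. Of 6 member probe sets listed with a current RefSeq transcript, 5 carried one of the annotated gene. The exception was 204326_x_at, annotated to MT1X, whose listed transcript is that of the pseudogene MT1L. Probe sequences were not used here, so a value is given for a probe set, and the gene beside it is the annotated one. The part of cross-hybridisation among paralogues in any value was not tested.

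The first comparison set treated against control tumours, 4 h after heating. A call of higher or lower needed a gap of at least 1 on the log2 scale (2-fold) between pool means, the same sign in each of the 4 array pairs, and 5 or more on both arrays of whichever pool was higher. A second count used a least difference of 0.5. Of the 10 detected member probe sets, 1 was higher by at least 1 and 0 were lower, where 0.787% of the 12835 probe sets detected in either pool were higher and 0.234% lower. With the least difference of 0.5 there were 3 higher and 0 lower, against 4.17% higher and 3.91% lower among all detected probe sets. All 10 differences were positive as deposited, though those of MT1H and MT1E 212859_x_at turned negative (-0.11 and -0.05) when arrays were shifted by their spike-in controls. The arrays of the pools did not overlap for 9 of the 10, but this was the common case, found for 75.0% of all detected probe sets, with arrays that are technical replicates of the same pools. The median of the 10 was 0.44 (0.34 for the 8 metallothionein probe sets), while that over all detected probe sets was -0.02.

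MT1F, MT1X and MT2A gave the 3 calls. The MT1F probe set 217165_x_at read 7.80 and 7.86 in the treated pool, 7.19 and 7.28 in the opposite-side pool, and 6.24 on both arrays of the control pool (log2 levels). The arrays of the 3 pools were apart, in the order treated, opposite side, control. The treated mean of 7.83 ± 0.039 stood 1.59 above the control mean of 6.24 ± 0.0014 (SD, 2 technical arrays each), a 3.01-fold difference that 36 of the 12835 detected probe sets equalled or passed. The other MT1F probe set, 213629_x_at, stayed below 5 on every array, at 4.64 and 4.59 in the treated pool, 4.57 and 4.64 in the opposite-side pool and 4.02 and 4.38 in the control pool. No difference is read from it, since it was not detected in any pool.

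MT1X was read by 2 detected probe sets that kept the same order of pools at different distances. Probe set 208581_x_at read 8.96 and 8.94 in the treated pool, 8.49 and 8.52 in the opposite-side pool, and 8.00 and 8.02 in the control pool. The pools did not overlap, and the treated mean was 1.92-fold that of control (log2 difference 0.94, range over array pairs 0.93 to 0.96). Probe set 204326_x_at, the one listed with the MT1L transcript, read 6.65 and 6.51 in the treated pool, 6.30 and 6.25 in the opposite-side pool, and 6.21 and 6.09 in the control pool. Its treated arrays lay above all others and its treated minus control difference was 0.43 (0.30 to 0.56), which did not reach the least difference of 0.5.

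MT2A, the main metallothionein of most human tissues, was read by 1 probe set, 212185_x_at. It stood at 8.919 and 8.923 in the treated pool, 8.39 and 8.44 in the opposite-side pool, and 8.21 and 8.22 in the control pool. The pools did not overlap, and the treated mean of 8.921 ± 0.0028 was 1.63-fold the control mean of 8.21 ± 0.0092 (log2 difference 0.71, range 0.70 to 0.72). Of all detected probe sets, 1.75% had a difference at least as high, against 0.93% for MT1X 208581_x_at.

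**Figure D2:**
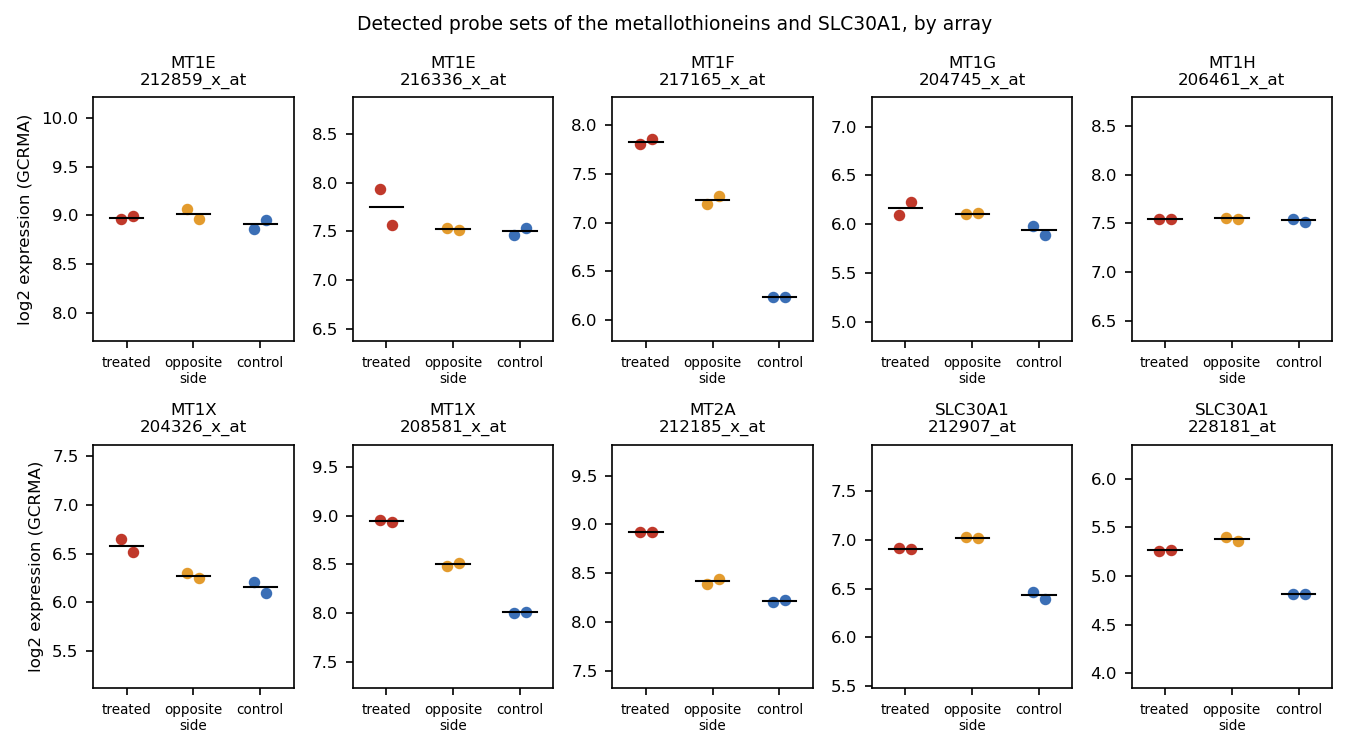
Log2 expression (GCRMA) of the 10 detected probe sets of the metallothioneins and SLC30A1 on each array (points), with the mean of the 2 technical arrays of each pool (lines); the vertical span is the same in every panel. MT1F, MT1X and MT2A are highest in the treated pool, SLC30A1 stands above control in both pools of the treated animals, and the MT1H pools lie within 0.02 of each other.

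The probe sets of MT1E, MT1G and MT1H differed little between the treated and control pools. MT1E 212859_x_at read 8.97 and 8.99 in the treated pool, 9.07 and 8.97 in the opposite-side pool, and 8.86 and 8.95 in the control pool, a treated minus control difference of 0.07 (0.01 to 0.13). The second MT1E probe set, 216336_x_at, read 7.93 and 7.57 in the treated pool, 7.53 and 7.52 in the opposite-side pool, and 7.46 and 7.54 in the control pool. Its treated arrays differed by 0.36, a gap that 1.42% of all detected probe sets reached or passed in this pool, and its difference of 0.25 from control rested mainly on the first treated array (0.03 to 0.47 over the array pairs).

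MT1G 204745_x_at read 6.10 and 6.23 in the treated pool, 6.10 and 6.11 in the opposite-side pool, and 5.99 and 5.89 in the control pool. Treated and control arrays did not overlap (difference 0.23, range 0.11 to 0.34), while treated and opposite-side arrays did. MT1H 206461_x_at read 7.549 on both treated arrays, 7.558 and 7.549 on the opposite-side arrays, and 7.549 and 7.519 on the control arrays. The same value to 3 decimals thus stood on 4 of 6 arrays, which was true of 1.12% of all detected probe sets. Whether this probe set could follow a change of MT1H was not tested. MT1H had the most core matches of the 5 windows, 8, and a treated minus control difference of 0.02.

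Of the remaining metallothionein probe sets, none reached 5. MT1M 217546_at stood at 2.375 on all 6 arrays, beside a lowest value of 2.374 in the whole table, and the second MT1G probe set, 210472_at, lay between 2.374 and 2.401. These were the only 2 metallothionein probe sets without the _x_at ending. MTF1 was read by 3 probe sets that all lay below 5. The first, 205323_s_at, read 4.34 and 4.36 in the treated pool, 4.36 and 4.34 in the opposite-side pool and 4.33 and 4.24 in the control pool. Probe set 227150_at read 3.75 and 3.94 in the treated pool, 3.75 and 3.85 in the opposite-side pool and 3.75 and 3.58 in the control pool. Probe set 205322_s_at read 3.69 and 3.64 in the treated pool, 3.69 and 3.70 in the opposite-side pool and 3.79 on both control arrays. The RNA of the activator was thus not measured above the detection level in any pool, and the treated minus control differences of 0.06, 0.18 and -0.12 had no common sign.

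SLC30A1 was read by 2 detected probe sets whose differences matched closely. Probe set 212907_at read 6.91 on both treated arrays, 7.03 and 7.02 on the opposite-side arrays, and 6.47 and 6.40 on the control arrays. Probe set 228181_at read 5.26 and 5.27 in the treated pool, 5.40 and 5.36 in the opposite-side pool, and 4.81 and 4.82 in the control pool. In both, the order of the pools was opposite side, treated, control, unlike that of MT1F, MT1X and MT2A. The treated minus control difference was 0.48 (1.39-fold) for the first and 0.45 for the second, which is at least 1.20-fold when the control mean is set to 5. The third SLC30A1 probe set, 242716_at, was on every array at the lowest value found in the table.

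**Figure D3:**
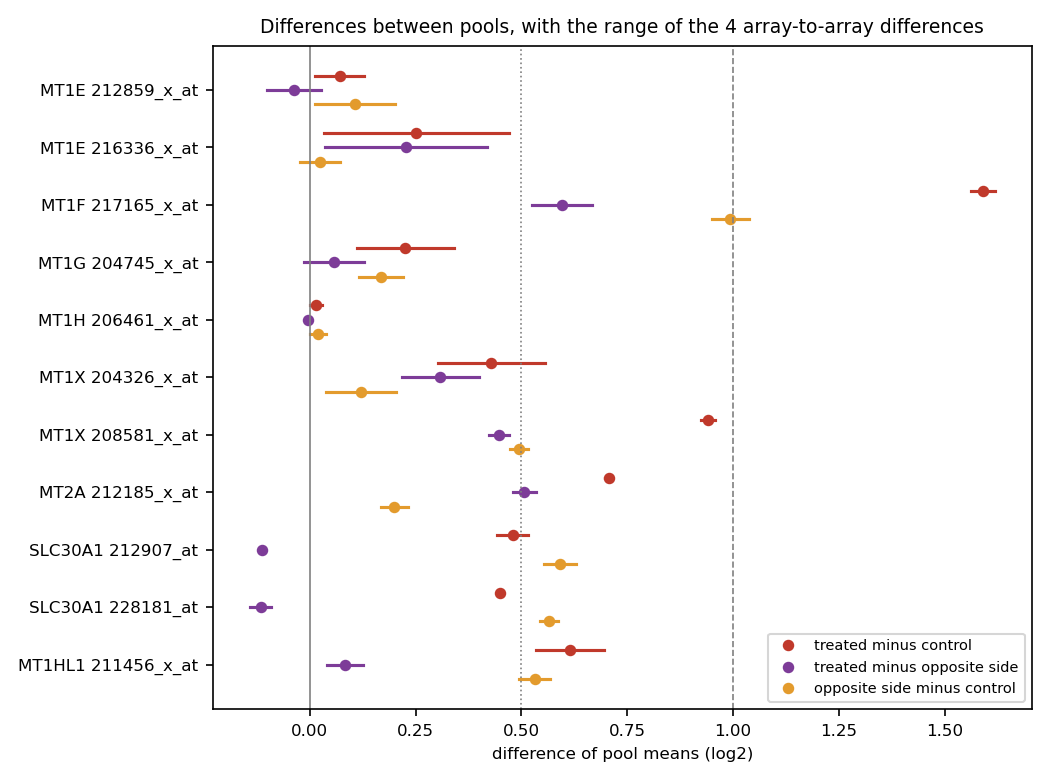
Differences of pool means (log2, points) with the range of the 4 array-to-array differences (bars) for the 10 detected member probe sets and MT1HL1; the dotted and dashed lines mark 0.5 and 1. MT1F 217165_x_at lies at 1.59, 0.60 and 0.99 in the 3 comparisons, and both SLC30A1 probe sets lie below 0 for treated minus opposite side.

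The second comparison set heated tumours against the unheated ones on the opposite side. Here 0 member probe sets differed by at least 1 in either direction, where 0.362% of the 12708 detected probe sets were higher and 0.102% lower. Arrays did not overlap for 7 of the 10, against 71.4% of all detected probe sets. With the least difference of 0.5, 2 were higher and 0 lower, against 3.75% higher and 2.53% lower among all. These were MT1F 217165_x_at, with a difference of 0.60 (1.51-fold, range 0.53 to 0.67), and MT2A, with 0.51 (1.42-fold, range 0.48 to 0.53). Without the first opposite-side array MT2A was at 0.48, and with quantile normalization at 0.49, both short of 0.5. MT1X 208581_x_at differed by 0.45 and 204326_x_at by 0.31.

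For MT1E 212859_x_at, MT1G and MT1H the arrays of the treated and opposite-side pools overlapped or tied, with differences of -0.04, 0.06 and -0.0045 (for MT1G -0.26 with the spike-in shift described next). Both SLC30A1 probe sets lay below the opposite side in the treated pool, with differences of -0.11 for 212907_at and -0.12 for 228181_at, less than 0.5 in size. The median of the 8 metallothionein probe sets was 0.27, that over all detected probe sets 0.0040. Spike-in controls are bacterial and phage RNAs added with the array maker's kit, and the 40 detected ones had a median treated minus opposite-side difference of 0.33. When the arrays were shifted by the spike-ins, an alternative chosen after seeing the data, every treated minus opposite-side difference moved by -0.32. MT1F was then at 0.28, MT2A at 0.19, MT1X at 0.13 (208581_x_at) and -0.0085 (204326_x_at), and 0 member probe sets passed 0.5 in either direction. The part of labelling or hybridisation in the treated minus opposite-side differences was not tested.

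The third comparison set the unheated tumours of treated animals against control xenografts. None of the 10 detected member probe sets passed the least difference of 1, where 0.328% of 12793 detected probe sets were higher and 0.266% lower. With 0.5, 3 were higher and 0 lower, against 2.77% higher and 4.73% lower among all. Arrays did not overlap for 8 of the 10, against 75.5% of all detected probe sets. Under both spike-in scalings 4 were higher by 0.5, with MT1X 208581_x_at added, which also passed without the first opposite-side array (0.51) and without the second control array (0.501). These scalings added 0.175 and 0.192 to every difference, and the median over all detected probe sets became 0.157 and 0.174. The share of all probe sets past 0.5 under them was not counted. MT1F 217165_x_at stood at 7.23 ± 0.061 in the opposite-side pool and 6.24 ± 0.0014 in the control pool, a difference of 0.99 that fell just short of 1 and passed it with quantile normalization (1.01) and with the spike-in shift (1.18). Without the first opposite-side array it was 1.04 and also passed.

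SLC30A1 gave the other 2 calls, with both detected probe sets. Probe set 212907_at averaged 7.02 ± 0.0035 in the opposite-side pool and 6.43 ± 0.049 in the control pool, a difference of 0.59 (1.51-fold) that 1.68% of detected probe sets equalled or passed. Probe set 228181_at averaged 5.38 ± 0.028 in the opposite-side pool and 4.81 ± 0.0021 in the control pool, a difference of 0.57. Its control pool was below 5, and the opposite-side mean was at least 1.30-fold higher when the control mean is set to 5, a bound that lies short of 0.5 on the log2 scale. MT1X 208581_x_at differed by 0.49 (0.47 to 0.52) and MT2A by 0.20 (0.17 to 0.23), and the other 5 metallothionein probe sets by 0.02 to 0.17. The metallothionein median was 0.14, against -0.02 over all detected probe sets. The comparisons of the treated and of the opposite-side pool share the control arrays, so their values stand side by side and are not independent of each other.

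**Figure D4:**
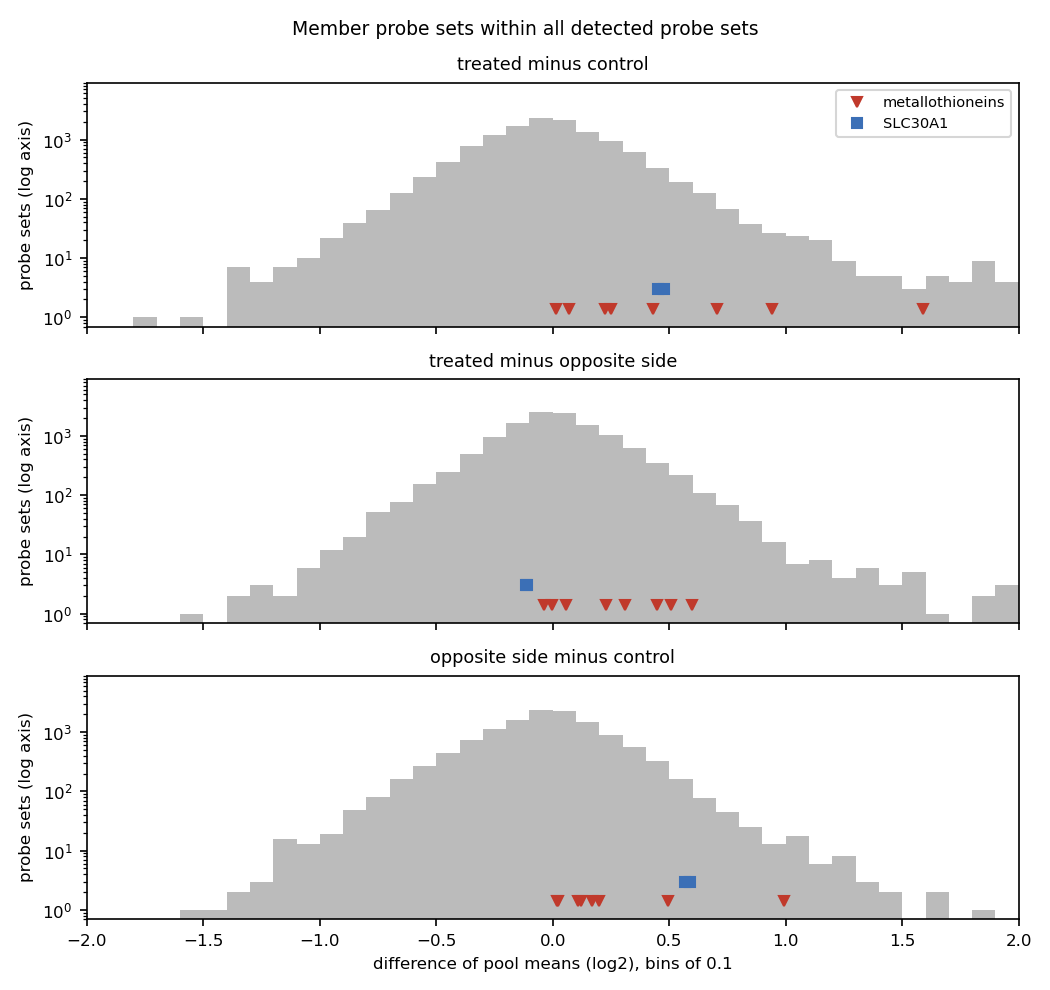
Number of detected probe sets (log axis) by difference of pool means in bins of 0.1 (log2), for the 3 comparisons, with the metallothionein probe sets (triangles) and SLC30A1 (squares) at their own differences; 13, 8 and 2 probe sets with differences of at least 2 lie outside the plots. The metallothioneins run from the middle of the distribution to its upper tail, and SLC30A1 lies on the upper side in both comparisons with control.

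Over the 3 pools, the mean profile of the 8 detected metallothionein probe sets was 7.84 in the treated, 7.58 in the opposite-side and 7.31 in the control pool. The genes nearest to it by Euclidean distance of the centred means were TES, WNK1, CD47, CD59 and KMT2C, at distances of 0.010 to 0.016 (log2) over 3 pools. TES, for instance, differed by 0.52 between treated and control and by 0.25 between treated and opposite side. Of 10911 detected probe sets with 1 gene, 44 lay within 0.05, and the 5 are named by likeness over 3 points alone.

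Other metallothioneins and metal genes were read from lists. Of 12 further metallothionein genes and pseudogenes, 3 were measured and MT1HL1, an intronless relative on chromosome 1, was detected. Its probe set 211456_x_at read 8.57 and 8.48 in the treated pool, 8.44 on both opposite-side arrays, and 7.88 and 7.95 in the control pool. It was higher than control by 0.61 in the treated pool and by 0.53 in the opposite-side pool, both past 0.5, while treated and opposite side differed by 0.08. MT3, the form known from the brain, stood between 2.384 and 2.386 on all arrays and MT4, known from squamous epithelia, at the lowest value of the table.

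Among 7 detected probe sets (4 genes) of the other ZnT exporters, 0 were higher than control by 0.5 in the treated pool and 1 was lower. It was 232432_s_at of SLC30A5, a carrier of zinc into the secretory pathway, at -0.50, but its treated mean of 4.76 was below 5, and with that mean set to 5 control was at least 1.20-fold higher. The other SLC30A5 probe sets differed by 0.22 and 0.04. The treated pool also lay below the opposite-side pool at 232432_s_at (-0.62, opposite side at least 1.30-fold higher), and the list median against control was 0.04. SLC30A7 differed from control by 0.21 at 226601_at and by 0.08 at 226217_at, SLC30A9 by -0.08 and SLC30A6 by 0.04. Among 10 detected probe sets (9 genes) of the ZIP importers, 0 passed 0.5 in either direction and the median was -0.09. SLC39A10 and SLC39A14, which carry zinc into the cytosol, differed by 0.498 and 0.46 from control and by 0.33 and 0.37 from the opposite side. SLC39A5 differed by -0.49 (231667_at) and -0.25 (1552281_at), and SLC39A4 by -0.18. The only call of the ZIP list in any comparison was at 231667_at, where the opposite-side pool lay below control (-0.63). The opposite-side mean was below 5 there, and with it set to 5 control was at least 1.23-fold higher.

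All 5 detected probe sets of the copper list lay below control in the treated pool in all 4 array pairs, with a median of -0.41. Among all 12835 detected probe sets 5263 did so. Past 0.5 was 1 of the 5, against 3.91% of all. All 5 also lay below control in the opposite-side pool in all 4 array pairs, with a median of -0.17. In that comparison 5305 of all 12793 detected probe sets did so. The probe set past 0.5 was that of CCS, the chaperone that delivers copper to superoxide dismutase. It read 6.33 and 6.21 in the treated pool, 6.49 and 6.48 in the opposite-side pool, and 6.94 and 7.02 in the control pool. ATP7B, a copper-exporting ATPase, differed by -0.42 from control, and ATOX1, which hands copper to the ATPases, by -0.41. ATP7A, the other copper ATPase, differed by -0.21. In the metal- and oxidant-responsive list, 0 of 13 detected probe sets passed 0.5 against control, with a median of 0.10. The cystine carrier SLC7A11 differed by 0.49 at 217678_at and by 0.33 at 209921_at, and the thioredoxin reductase TXNRD1 by 0.36. Thioredoxin, TXN, differed by 0.37 at 216609_at and by 0.12 at 208864_s_at. GCLC differed by -0.37 at 202922_at and by 0.03, with overlapping arrays, at 202923_s_at. GCLC, which makes the first step of glutathione synthesis, was lower in the treated than in the opposite-side pool by more than 0.5 at 202922_at (-0.58) and differed by -0.32 at 202923_s_at.

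Among 6 detected probe sets of glucocorticoid targets, 1 was higher than control by at least 1 in the treated pool, and the median was 0.06. This was the kinase gene SGK1, at 6.33 and 6.28 in the treated pool, 6.12 and 6.06 in the opposite-side pool, and 5.12 and 4.86 in the control pool. It was higher than control in the opposite-side pool too, by 1.10. FKBP5 differed by -0.22 between treated and control, DUSP1 by 0.13 and TSC22D3 by 0.07. DUSP1 and ERRFI1 were higher in the treated than in the opposite-side pool by 0.52 and 0.57, and ERRFI1 was lower in the opposite-side than in the control pool (-0.52).

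**Figure D5:**
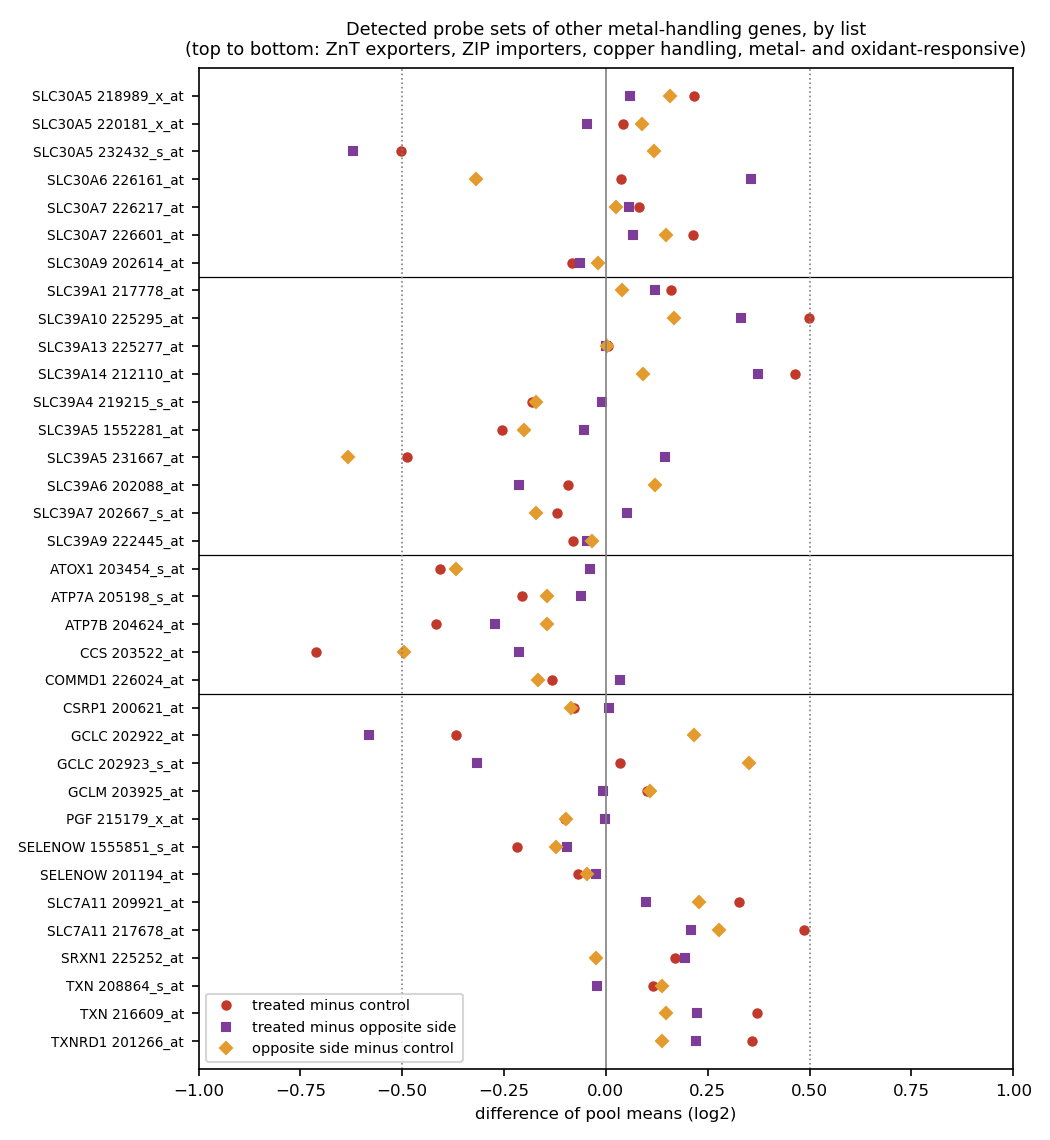
Differences of pool means (log2) for each detected probe set of the ZnT exporters, ZIP importers, copper genes and metal- and oxidant-responsive genes, in the 3 comparisons; dotted lines mark 0.5 in either direction. CCS is the lowest for treated minus control at -0.71, and no probe set of these lists passes 0.5 upwards.

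Several other measures of the pools moved beside the metallothioneins. HSPA6, a strictly inducible chaperone gene (213418_at), averaged 8.71 in the treated pool, 5.82 in the opposite-side pool and 4.85 in the control pool. The heat genes DNAJB1 (200666_s_at), HSPH1 (206976_s_at) and BAG3 stood above control in the treated pool by 1.91, 2.02 and 1.86. Between opposite side and control these genes differed by 0.035, -0.16 and 0.42. Of 13 colon epithelium markers 9 were detected, and the summed linear level of their detected probe sets was 35370.5 to 35631 in the treated, 35684 to 35725 in the opposite-side and 32667 to 32717 in the control pool. A linear sum weighs the brightest probe sets most. Treated minus control, the 10 detected colon probe sets ran from -0.13 (CEACAM5) to 0.27 (KRT20). Of these 10 differences 7 were positive, and 3 probe sets lay below control in all 4 array pairs. CDX1, CDX2, CDH17 and GPA33, which are typical of intestinal epithelium, were not detected. Of 9 fibroblast and matrix markers 4 were detected, with sums of 741 to 749.7 in the treated, 617 to 631 in the opposite-side and 318 to 362 in the control pool. Treated minus control, TAGLN was higher by 1.66 and VIM by 1.14, while COL1A1 differed by 0.67 and FN1 by 0.01, and 18 of the 37 probe sets of the list lay within 0.1 of the lowest value of the table on all arrays. Of 9 skeletal muscle markers 4 were detected, with sums of 281 to 294 in the treated, 232.8 on both opposite-side arrays and 222 to 229 in the control pool. The sum joins genes that moved apart between treated and control. MYL11 was higher by 1.60, TNNT3 differed by 0.06 and TNNT1 by -0.45. ACTA1 was at least 1.21-fold higher, with a difference of 2.17 from a control mean below 5. Of the endothelial, leukocyte, and fat and skin markers 1 gene each was detected, and of 5 red blood cell markers 0 of the 3 measured ones. The marker probe sets of all these lists name human genes, while the host was a mouse. How far they read RNA of mouse cells was not tested, so neither detection nor its absence measures the content of host cells. A probe set shared by HBA1 and HBA2 (214414_x_at) read 5.003 and 5.10 in the treated pool, 2.68 and 2.76 in the opposite-side pool, and 2.63 and 2.67 in the control pool. Every other probe set shared by these genes stayed below 5 on all arrays, at most at 3.66 (217414_x_at, second treated array). For RNA integrity, the ACTB probe set nearest the 5′ end stood above control by 1.12 in the treated and by 1.28 in the opposite-side pool, and the 3′ one by 0.23 and 0.15. GAPDH went the other way in the treated pool, its 5′ probe set differing from control by -0.46 in the treated and by -0.01 in the opposite-side pool, and its 3′ one by -0.03 and 0.0005. The part of other cells and of RNA quality in the differences of the metallothioneins and SLC30A1 was not tested.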

How the data were processed

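RNA of HT-29 xenografts was read on 6 one-colour Affymetrix arrays, 2 technical arrays for each of 3 pools, per the labels. The range of the deposited values shows a log2 scale. The authors made them with GCRMA (version not given in the sources used here), per the submitters' processing notes, a method that corrects background, normalizes across arrays and merges the probes of a probe set. Of 54675 probe sets, 41097 named 1 gene, 1801 several and 11777 none in the platform annotation of GEO, and 41043 were given current symbols through Entrez identifiers (RefSeq). No test was possible with 1 pool for each group. Array values were averaged within pools and the size rule was applied to every probe set of the table. The members, lists, alternatives and size rule were chosen with earlier results of these data known. Named were all member probe sets, HSPA6 and the 5 nearest profiles. Of the other lists, the genes past the size rule and up to 4 with the largest treated minus control difference were named. The endothelial, leukocyte, and fat and skin lists were left out of this rule, and their detected genes are not named. ERRFI1, outside this rule, was named for differences past 0.5 in the other comparisons. Of the colon list, sums and the ends of the range of differences are given in place of all genes. The HBA1 and HBA2, ACTB, GAPDH, single colon gene and further GCLC, SLC39A5, SLC7A11, SLC30A7 and TXN values were added after they were seen. Alternatives were other floors, least differences, averaging, scaling and probe sets, and leaving out each array. Values were computed in Python 3.11.15 with pandas 2.3.3 and numpy 2.4.6, and plotted with matplotlib 3.10.9.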

Additional observations from a re-analysis of the deposited data

How the results depend on the processing

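Counts of member probe sets past the least difference of 1 were the same under most alternatives. Without _x_at and _s_at probe sets the treated minus control count was 0, since MT1F is read by _x_at probe sets alone. With a least difference of 0.5 the counts were 3 for treated minus control, 2 for treated minus opposite side and 3 for opposite side minus control. For opposite side minus control, MT1F made the count 1 with quantile normalization, 1 with arrays at the same spike-in median and 1 with the shift by spike-in deviation, and leaving out an array gave 0 to 1 (1 without the first opposite-side array). Requiring agreement of same-numbered arrays only, as a replicate block, left the counts at 1, 0 and 0. The deviations of same-numbered arrays correlated by -0.0070 to 0.014 over detected probe sets, so the numbers do not pair the arrays.

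The metallothionein median for treated minus control was 0.22 with the shift by spike-in deviation, beside -0.14 over all detected probe sets. It was 0.47 with 1 probe set a gene, and 0.33 to 0.47 when an array was left out (highest without the second treated array). For treated minus opposite side it was 0.0785 with arrays at the same spike-in median and -0.0493 with the shift by spike-in deviation, and 0.18 to 0.39 when an array was left out (0.39 without the second treated array). In that comparison the median of all detected probe sets was -0.185 and -0.31 with these 2 scalings. Each scaling moves every probe set by the same amount, so places among all probe sets cannot change and are not tested by it. The metallothionein median for opposite side minus control was 0.32 and 0.34 with both spike-in scalings, beside 0.157 and 0.174 over all detected probe sets. It was 0.18 with 1 probe set a gene and 0.14 to 0.19 when an array was left out. The cause of the spike-in difference was not tested. No metallothionein median exists without _x_at probe sets, and no member probe set names several genes, so that alternative changed no value. Among 210 further values of single probe sets outside the spike-in scalings, 203 stayed within the spread of the technical arrays and 7 moved beyond it. The sign turned in 3, none of them past 0.5 as reported. Values with an array left out could not move beyond this spread, which comes from the same arrays, so they do not test it. The 7 were among 30 values with quantile normalization. Linear averaging and arrays at the same median moved 0 of 30 each. With arrays at the same spike-in median 21 of 30 moved and 1 turned its sign. With the shift by spike-in deviation 28 of 30 moved and 5 turned their sign. Arrays measure error of labelling and hybridisation only, and values near the lowest of the table have no order.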
